A study of Mus musculus with 13 samples.

Results

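The 8 genes described here are inhibitors of the cyclin-dependent kinases of the cell cycle and the pocket proteins on which those kinases act: Cdkn2a, Cdkn2b, Cdkn2c, Cdkn2d, Cdkn1b, Rb1, Rbl1 and Rbl2. They were taken by gene symbol from a deposited table of RNA levels in mouse embryonic fibroblasts (MEFs). Each symbol matched 1 gene interval, so they are 8 of the 25965 intervals in the table, and all 8 were among the 13134 intervals with enough reads to test. The table holds 13 libraries of poly(A) RNA, of which 12 fall into 4 groups of 3. Control cells carried a hairpin without a mouse target, control + 5-aza cells had 5-azacytidine as well, Setdb1 cells carried a hairpin against Setdb1, and Setdb1 + 5-aza cells had both. Setdb1 is a methyltransferase for lysine 9 of histone H3, and 5-azacytidine is a cytidine analogue that blocks the maintenance of DNA methylation. The hairpin of replicates A and B was a non-silencing one in both control groups and shSetdb1.4 in both Setdb1 groups, and that of replicate 1 was against luciferase or was shSetdb1.6.

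The 12 hairpin libraries came from primary female XXist∆A/XPGK MEFs of day 13.5 embryos, transduced with a retrovirus and selected with puromycin, including the controls. Treated cells had 5-azacytidine for 24 h from day 3, and cells were harvested on day 7. The study's text places a gene-trap allele of Setdb1 (Setdb1+/gt) in the MEFs that received hairpins against Setdb1, while MEFs with the non-silencing hairpin were Setdb1+/+. It does not give the genotype for the luciferase hairpin, and the labels give no embryo or genotype per library. The hairpin, the gene-trap allele and the embryo therefore cannot be told apart. The p-values measure the spread between these libraries. Replicate 1 carried another hairpin than A and B, so it was transduced separately, and the spread within a group includes any difference between its hairpins. Nothing in the labels says whether replicates A and B came from separate cultures, so the spread between them may be technical.

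INK4 proteins bind Cdk4 and Cdk6 and keep them from their D cyclins, and CIP/KIP proteins such as p27, the product of Cdkn1b, bind cyclin and kinase together. Free cyclin-dependent kinases phosphorylate the pocket proteins pRB (Rb1), p107 (Rbl1) and p130 (Rbl2), which otherwise hold E2F transcription factors and keep genes for DNA synthesis low. The Ink4-Arf locus holds Cdkn2b, which encodes p15, and Cdkn2a, whose alternative first exons give p16 (Ink4a) and Arf, an inhibitor of Mdm2 that acts on p53. This locus is known for its rise as MEFs age in culture.

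Both Ink4-Arf genes lie on the reverse strand of chromosome 4 of the mm10 build, Cdkn2a (ENSMUSG00000044303) at chr4:89274473-89294653 and Cdkn2b (ENSMUSG00000073802) at chr4:89306289-89311032, with 11635 bases between them. The table has 1 value for all Cdkn2a transcripts, so Ink4a and Arf were not separated. The windows around their starts are shown because 5-azacytidine acts on the methylation of CpG sites, which are in capitals. Each has 250 bases before and 50 bases from the start, read 5′ to 3′ on the gene's strand, from RefSeq on GRCm38.p6, the assembly of mm10.
Cdkn2a, upstream start (Arf), chr4:89294570-89294869, reverse strand: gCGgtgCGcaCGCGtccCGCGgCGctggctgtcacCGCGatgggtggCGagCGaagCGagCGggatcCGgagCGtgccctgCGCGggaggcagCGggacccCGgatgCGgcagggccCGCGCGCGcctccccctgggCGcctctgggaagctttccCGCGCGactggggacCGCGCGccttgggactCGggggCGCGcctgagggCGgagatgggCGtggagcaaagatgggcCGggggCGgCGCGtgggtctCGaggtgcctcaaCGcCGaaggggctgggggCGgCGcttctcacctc
Cdkn2a, downstream start (Ink4a), chr4:89282143-89282442, reverse strand: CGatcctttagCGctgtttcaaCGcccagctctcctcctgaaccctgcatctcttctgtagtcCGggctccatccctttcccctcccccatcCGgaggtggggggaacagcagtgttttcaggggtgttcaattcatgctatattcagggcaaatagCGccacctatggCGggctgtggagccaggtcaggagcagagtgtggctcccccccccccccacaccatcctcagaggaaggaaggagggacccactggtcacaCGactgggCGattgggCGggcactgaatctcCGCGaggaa
Cdkn2b, chr4:89310983-89311282, reverse strand: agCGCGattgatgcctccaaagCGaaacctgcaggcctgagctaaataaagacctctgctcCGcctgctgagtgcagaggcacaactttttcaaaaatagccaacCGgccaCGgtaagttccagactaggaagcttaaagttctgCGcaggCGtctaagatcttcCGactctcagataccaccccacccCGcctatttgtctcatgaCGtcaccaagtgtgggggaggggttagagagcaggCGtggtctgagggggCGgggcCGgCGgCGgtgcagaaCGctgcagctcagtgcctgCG
The upstream Cdkn2a window held 45 CpG sites, more than 98.1% of the 32851 windows of the same length, whose median was 7. The downstream window held 12 and the Cdkn2b window 18, more than 60.4% and 70.3% of windows. Across the 9 windows found for 7 of the members, Cdkn2c (33 and 8 at its alternative starts), Cdkn1b (30), Rbl1 (29), Cdkn2d (22) and Rbl2 (14) held from 8 to 33.

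The libraries held 36421653 to 51270200 reads in genes, and 1 read was worth 0.017 to 0.02385 RPM, the deposited unit, in which reads are scaled to the library's total. Setdb1 itself was at 46.25 ± 0.103 RPM (SD, n = 3) in control, 43.4 ± 0.631 in control + 5-aza, 14.1 ± 1.72 in Setdb1 and 12.9 ± 2.16 in Setdb1 + 5-aza. The shSetdb1.4 libraries had 32.5% of the control level without 5-aza and 32.6% with it, and the shSetdb1.6 libraries 26.2% and 24.1%. The 10 fibroblast markers summed to between 22730 and 34980 RPM in every library, whereas the summed macrophage markers lay at 11.5 to 17.6 RPM, endothelial at 4.22 to 8.20, epithelial at 26.1 to 75.5, skeletal muscle at 12.4 to 29.1 and neural at 307 to 528 RPM. Of the tested markers, 3 of 4 macrophage and 2 or 3 of 3 epithelial genes were higher with 5-aza in both hairpin classes, and 2 of 3 epithelial and 4 of 4 neural genes were higher with Setdb1 hairpins without 5-aza. The 1 tested muscle gene was higher in these 3 comparisons. Lower with 5-aza in both hairpin classes were 1 of 3 endothelial and 1 of 4 neural genes, and with it in Setdb1 cells 2 of 10 fibroblast genes were lower and 1 higher. In control cells 1 of 4 neural genes was higher with 5-aza. With Setdb1 hairpins in 5-aza, 1 of 10 fibroblast, 1 of 3 endothelial and 1 of 4 macrophage genes were lower and 2 of 4 neural and 2 of 3 epithelial genes were higher. Of all intervals tested, 9.01% were higher and 3.4% lower with Setdb1 hairpins without 5-aza, and 14.5% and 5.37% in 5-aza. With 5-aza, 13.5% were higher and 5.34% lower in control cells, and 21.4% and 7.51% in Setdb1 cells. In most groups Emr1 and Tyrobp of macrophages, Tie1 and Cldn5 of endothelium and Cdh1 of epithelium were at 3 reads or fewer. So were Myog, Myf5 and Ckm of muscle, Elavl3 of the neural markers and Sox10 of the neural crest. The part of other cell types in the members' values was not tested. Fewer cells of a type and less RNA per cell cannot be told apart in bulk RNA.

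Per kilobase of annotated exon, the Ink4-Arf genes were the most highly expressed members. In control cells Cdkn2b was at 64.35 RPM per kb and Cdkn2a at 32.2, followed by Cdkn1b (7.28), Rb1 (6.23), Rbl2 (4.05), Cdkn2d (3.07), Rbl1 (2.64) and Cdkn2c (1.88). This order held in the other 3 groups except that Rb1 was above Cdkn1b in control + 5-aza, at 6.76 against 5.72 RPM per kb. Neighbours in the order overlapped between libraries only for Cdkn2d and Rbl1 in both Setdb1 groups and for Cdkn1b and Rb1 in Setdb1 + 5-aza.

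**Figure D1:**
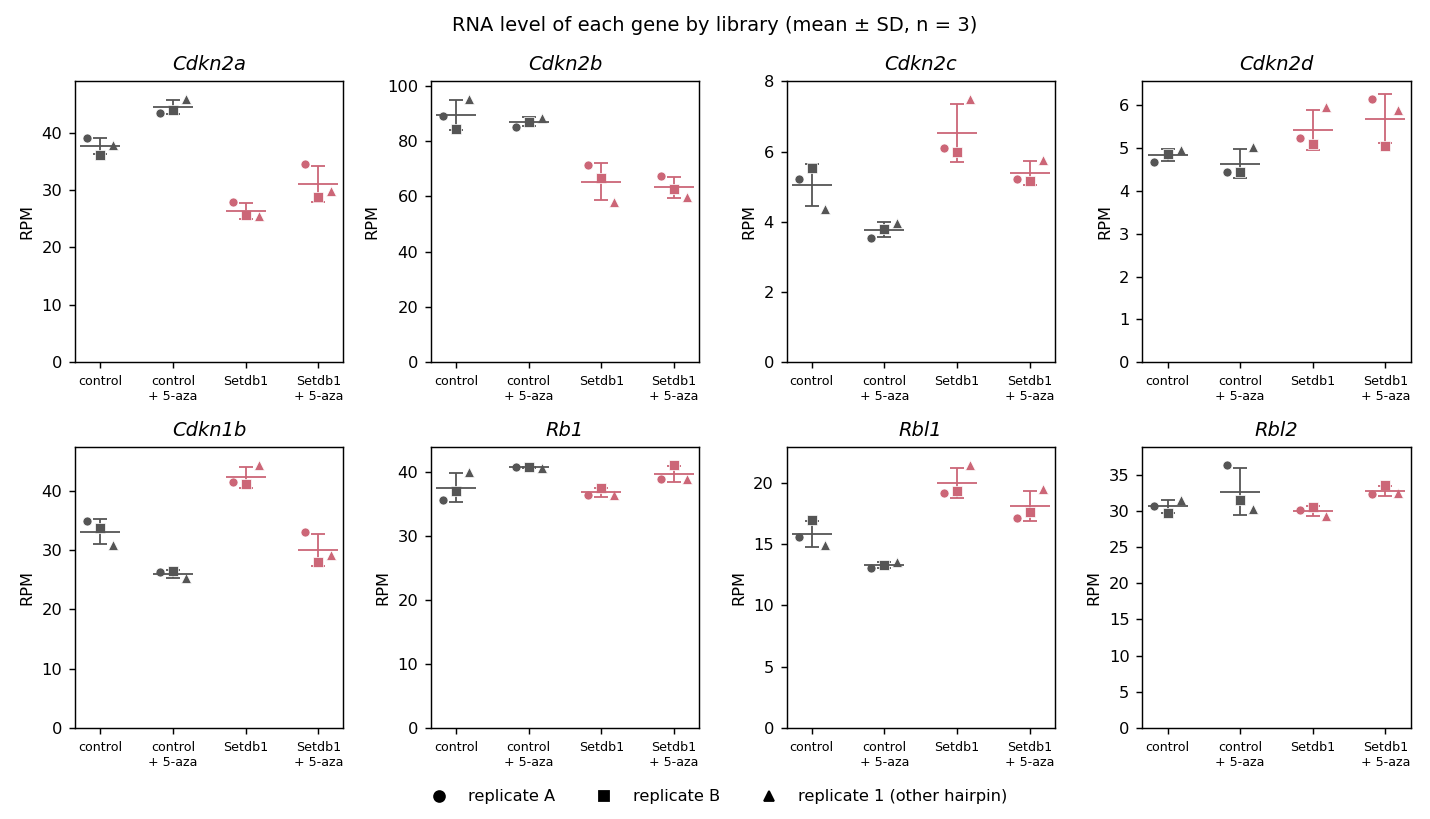
RNA level of the 8 genes in RPM (vertical axis, starting at 0) in the 4 groups (horizontal axis), with replicates A, B and 1 as circles, squares and triangles and the group mean ± SD (n = 3) as bars. All Setdb1 hairpin libraries lie below all control hairpin libraries for Cdkn2a (25.4 to 34.6 against 36.2 to 45.8 RPM) and Cdkn2b (57.9 to 71.2 against 84.2 to 95.0 RPM).

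The first comparison was of Setdb1 with control hairpins. The members were chosen with earlier results of these data known, so their counts beside the shares of all intervals are descriptive. Without 5-aza, 5 of the 8 members differed: Cdkn2a and Cdkn2b fell, and Cdkn2c, Cdkn1b and Rbl1 rose. Of all intervals tested, 9.01% were higher and 3.4% lower at the same threshold, an adjusted p under 0.05 from limma. With 5-aza in both groups the same 5 genes moved the same ways and Cdkn2d rose too, so that 4 were higher and 2 lower, where 14.5% and 5.37% of all intervals were. Both fits share no libraries but share an estimate of the spread. The median member had a log2 fold change of 0.06 without 5-aza and 0.11 with it, against 0.031 and 0.047 over all intervals. After median centring 2 members were higher and 2 lower in each condition, where 6.02% of all intervals were higher and 6.53% lower without 5-aza and 9.13% and 9.62% with it.

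Cdkn2a, without 5-aza, was at 39.0, 36.2 and 37.9 RPM in control replicates A, B and 1, and at 28.0, 25.6 and 25.4 RPM in the Setdb1 replicates. With 5-aza it was at 43.5, 44.0 and 45.8 RPM in the controls and at 34.6, 28.8 and 29.8 RPM under Setdb1 hairpins. The groups did not overlap in either condition. Cdkn2a fell by 30.2% without 5-aza (log2 fold change -0.52, SE 0.07, limma adjusted p = 0.000421) and fell by 30.4% with it (-0.52, SE 0.07, adjusted p = 0.000343). Relative to the control mean, the level was 71.0% under shSetdb1.4 and 67.4% under shSetdb1.6 without 5-aza, and 71.3% and 66.9% with it.

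Cdkn2b, the neighbouring INK4 gene, moved by a similar proportion. Its level was 89.2, 84.2 and 95.0 RPM in control and 71.2, 66.6 and 57.9 RPM in Setdb1 libraries, and with 5-aza it was 85.2, 86.9 and 88.45 RPM in the controls and 67.2, 62.55 and 59.8 RPM under Setdb1 hairpins. Every Setdb1 hairpin library was below every control hairpin library. The decrease was 27.3% in both conditions (log2 fold change -0.46, SE 0.07 in each), with a limma adjusted p of 0.00168 without 5-aza and 0.00122 with it. Under shSetdb1.4 the control mean was reached to 77.0% in untreated and 74.7% in treated cells, and under shSetdb1.6 to 64.7% and 68.9%. Calls for Cdkn2a and Cdkn2b were kept in all 22 alternatives tried in each condition, with log2 fold changes from -0.60 to -0.47 and from -0.52 to -0.33.

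The other INK4 genes, Cdkn2c (p18) and Cdkn2d (p19), which lie outside the locus, were expressed at far fewer reads and did not fall in any fit of the hairpin comparison. Cdkn2c was at 5.21, 5.545 and 4.38 RPM in control and 6.10, 5.999 and 7.49 RPM in Setdb1 libraries. With 5-aza it was at 3.55, 3.80 and 3.98 RPM in the controls and 5.22, 5.18 and 5.77 RPM under Setdb1 hairpins. The groups did not overlap in either condition, and the shSetdb1.6 library was the highest in each. Cdkn2c rose by 29.4% without 5-aza (log2 fold change 0.37, SE 0.11, limma adjusted p = 0.0425) and by 42.7% with it (0.51, SE 0.11, adjusted p = 0.00688). The first call was lost in 12 of 22 alternatives: without control replicate A (0.40, adjusted p = 0.0811) or 1 (0.27, 0.16), Setdb1 replicate A (0.42, 0.0563) or 1 (0.27, 0.176), control + 5-aza replicate B (0.37, 0.0626) or Setdb1 + 5-aza replicate B (0.37, 0.0587), and with replicates A and B only the value was 0.17 (adjusted p = 0.354).

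Cdkn2d was at 4.68, 4.88 and 4.95 RPM in control and 5.24, 5.10 and 5.96 RPM in Setdb1 libraries, a log2 difference of 0.16 with a 95% interval of -0.03 to 0.36 that did not pass the test (limma adjusted p = 0.272). With 5-aza it was at 4.435 to 5.04 RPM in the controls and at 6.14, 5.06 and 5.89 RPM under Setdb1 hairpins. There Cdkn2d rose by 22.5% (log2 fold change 0.29, SE 0.09, limma adjusted p = 0.0418) and the nearest libraries of the groups were at 5.04 and 5.06 RPM. That call was lost in 14 of 22 alternatives. Among them were fits without control replicate A (0.29, adjusted p = 0.0579), B (0.29, 0.0576) or 1 (0.29, 0.0518), control + 5-aza replicate A (0.26, 0.127) or B (0.26, 0.129), Setdb1 replicate A (0.29, 0.0506), and Setdb1 + 5-aza replicate A (0.24, 0.0988) or 1 (0.27, 0.144).

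Cdkn1b, whose product p27 inhibits Cdk2 with its cyclins, was at 34.9, 33.7 and 30.8 RPM in control and 41.4, 41.1 and 44.3 RPM in Setdb1 libraries. With 5-aza it was at 26.3, 26.55 and 25.3 RPM in the controls and 33.1, 28.0 and 29.2 RPM under Setdb1 hairpins. All Setdb1 hairpin libraries were above the controls of the same condition. Cdkn1b rose by 27.8% without 5-aza (log2 fold change 0.35, SE 0.07, limma adjusted p = 0.00506) and by 15.2% with it (0.20, SE 0.07, adjusted p = 0.0475). The second call was lost in 17 of 22 alternatives, among them each leave-one-out fit except those without control replicate 1 or Setdb1 + 5-aza replicate B, at log2 fold changes of 0.13 (without Setdb1 + 5-aza replicate A) to 0.22 and adjusted p-values of 0.0511 to 0.116.

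Of the pocket protein genes, Rbl1 rose under Setdb1 hairpins and Rb1 and Rbl2 did not pass the test. Rbl1, which encodes p107, was at 15.55, 16.96 and 14.9 RPM in control and 19.2, 19.4 and 21.4 RPM in Setdb1 libraries. With 5-aza it was at 13.0, 13.3 and 13.6 RPM in the controls and 17.2, 17.7 and 19.5 RPM under Setdb1 hairpins. The groups did not overlap, and the shSetdb1.6 library was again the highest. The increase was 26.5% without 5-aza (log2 fold change 0.34, SE 0.07, limma adjusted p = 0.0067) and 35.9% with it (0.44, SE 0.07, adjusted p = 0.000933). With replicates A and B only, without 5-aza, Rbl1 and Cdkn1b were no longer called, at log2 0.25 (adjusted p = 0.08) and 0.27 (adjusted p = 0.117).

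Rb1 ranged from 35.5 to 41.0 RPM over the 12 libraries and differed by log2 -0.03 without 5-aza (95% interval -0.13 to 0.07) and -0.04 with it (-0.14 to 0.06). Rbl2, the gene of p130, ranged from 29.2 to 36.3 RPM and differed by -0.03 (-0.16 to 0.10) and 0.01 (-0.12 to 0.14). Both genes overlap others in the annotation, Rb1 the genes Rcbtb2, Gm17233, Mir687 and Lpar6, and Rbl2 the genes Aktip and Gm45464. Rbl1 overlaps the pseudogene Gm14277. Whether counting used strand is not given in the sources used here, so reads of overlapping exons may be shared.

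**Figure D2:**
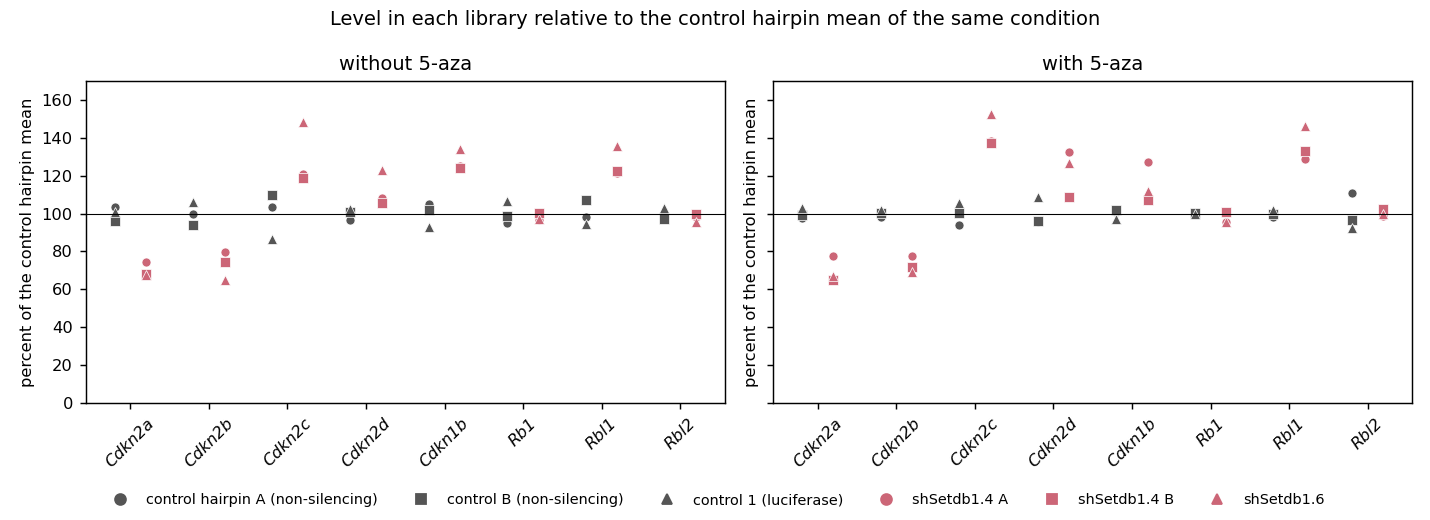
Level of each gene in each library as a percent of the control hairpin mean of the same condition (vertical axis, starting at 0; line at 100), without 5-aza on the left and with it on the right. Control hairpin libraries are grey and Setdb1 hairpin libraries red, with shSetdb1.4 as circles and squares and shSetdb1.6 as triangles; for Cdkn2a both Setdb1 hairpins lie at 66.9% to 71.3% on average.

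The second comparison was of 5-aza with no drug. In control hairpin cells 1 member rose (Cdkn2a) and 3 fell (Cdkn2c, Cdkn1b and Rbl1), where 13.5% of all intervals rose and 5.34% fell. In Setdb1 hairpin cells 1 rose (Cdkn2a) and 1 fell (Cdkn1b), where 21.4% rose and 7.51% fell. Setdb1 libraries with and without 5-aza share replicate labels, and these pairs deviated together (residual correlations of 0.413 to 0.634). With the pairing as a block 4 members were called, since Cdkn2c (log2 -0.27, adjusted p = 0.0375) and Rbl1 (-0.14, adjusted p = 0.0489) then fell as well. The shares of all intervals above are from the fit without the block. Those of the blocked fit are not given here, so its count of members cannot be read against them. After median centring 0 rose and 3 fell (Cdkn2c, Cdkn1b and Rbl1) in each hairpin class, where 9.78% of all intervals rose and 10.2% fell in control cells and 14.0% and 12.7% in Setdb1 cells. These comparisons share libraries with the first ones, Setdb1 or control, so their values are not independent of them.

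Cdkn2a rose by 17.9% with 5-aza in control hairpin cells (log2 fold change 0.24, SE 0.07, limma adjusted p = 0.0272) and by 17.6% in Setdb1 hairpin cells (0.23, SE 0.07, adjusted p = 0.0215). No library overlapped, although the nearest in the Setdb1 groups were at 28.0 and 28.8 RPM. Over the 4 groups the Cdkn2a level was thus ordered control + 5-aza (44.5 ± 1.20 RPM), control (37.7 ± 1.45), Setdb1 + 5-aza (31.0 ± 3.11) and Setdb1 (26.3 ± 1.42; SD, n = 3). A replicate block by culture kept both 5-aza calls of Cdkn2a, at a limma adjusted p of 0.00289 in control cells and 0.00222 in Setdb1 cells. This block was taken as the pairing only in Setdb1 cells. Each 5-aza call was lost in 7 of 22 alternatives. In control cells these included median centring (0.19, adjusted p = 0.0609) and fits without control replicate B (0.21, 0.11) or 1 (0.24, 0.0525) or control + 5-aza replicate B (0.24, 0.0671) or 1 (0.22, 0.0811). In Setdb1 cells they included median centring (0.18, 0.0673) and fits without Setdb1 replicate B (0.22, 0.0626) or 1 (0.21, 0.068) or Setdb1 + 5-aza replicate A (0.15, 0.0541).

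Cdkn2b did not follow its neighbour under 5-aza. Its mean was 89.45 ± 5.41 RPM in control and 86.85 ± 1.63 in control + 5-aza, and 65.2 ± 6.75 in Setdb1 and 63.2 ± 3.72 in Setdb1 + 5-aza (SD, n = 3). The groups overlapped in both cases. The log2 difference was -0.04 in each, with a 95% interval of -0.20 to 0.11 that leaves out the estimates for Cdkn2a, and neither passed the test (limma adjusted p = 0.727 and 0.677). The difference between the genes was not tested.

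Cdkn1b fell in both hairpin classes, by 21.2% in control hairpin cells (log2 fold change -0.34, SE 0.07, limma adjusted p = 0.0045) and 29.0% in Setdb1 hairpin cells (-0.49, SE 0.07, adjusted p = 0.000537). Both calls were kept in all 22 alternatives. Cdkn2c fell by 24.9% in control hairpin cells (-0.41, SE 0.11, adjusted p = 0.0204) and was 17.1% lower in Setdb1 hairpin cells without passing the unblocked test (-0.27, 95% interval -0.51 to -0.04, adjusted p = 0.0774). Rbl1 fell by 15.7% in control hairpin cells (-0.25, SE 0.07, adjusted p = 0.023) and differed by -0.14 in Setdb1 hairpin cells (95% interval -0.29 to 0.00, adjusted p = 0.122). In control cells both calls were lost without control replicate A, control replicate B, control + 5-aza replicate A or control + 5-aza replicate B, at adjusted p-values of 0.0549 to 0.0913 for Cdkn2c (log2 -0.42 to -0.34) and 0.0538 to 0.104 for Rbl1 (-0.26 to -0.20).

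Rb1 was at 37.5 ± 2.27 RPM in control and 40.7 ± 0.0623 in control + 5-aza, and at 36.7 ± 0.667 in Setdb1 and 39.55 ± 1.25 in Setdb1 + 5-aza (SD, n = 3). No library overlapped in either pair, but the log2 differences of 0.12 (95% interval 0.02 to 0.22) and 0.11 (0.01 to 0.20) did not pass the adjusted threshold (limma adjusted p = 0.0842 and 0.0984). Rbl2 differed by 0.09 (-0.04 to 0.22) and 0.13 (0.00 to 0.26), and Cdkn2d by -0.06 (-0.26 to 0.14) and 0.07 (-0.13 to 0.27).

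**Figure D3:**
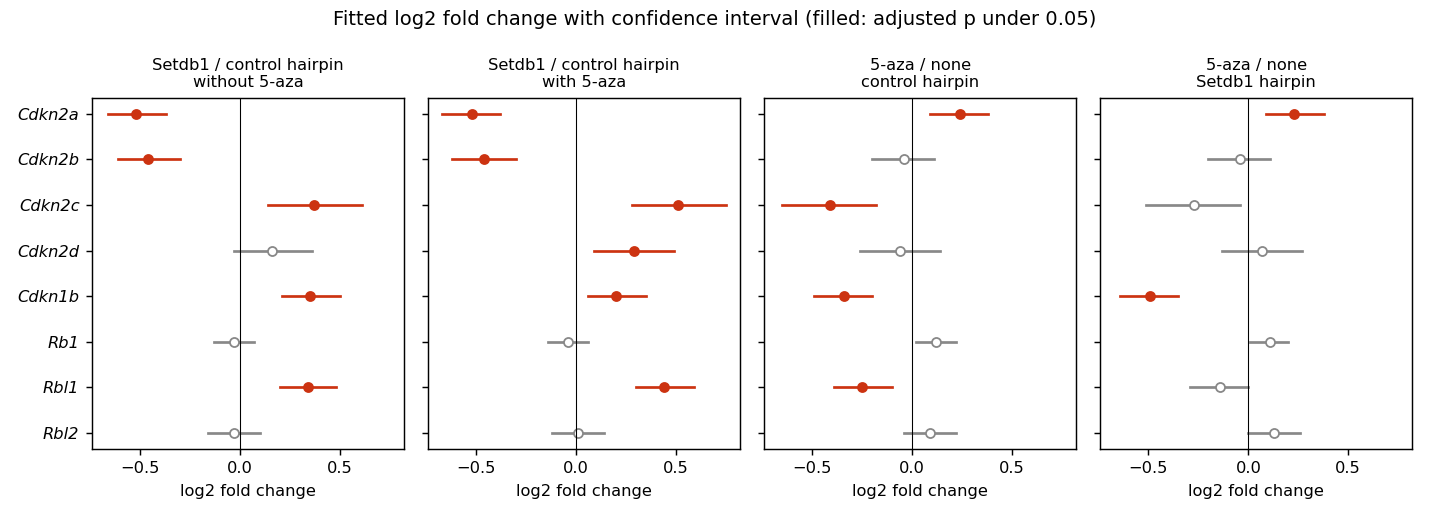
Fitted log2 fold change (horizontal axis) of each gene with its 95% interval in 4 comparisons, filled red where the adjusted p was under 0.05. Cdkn2a and Cdkn2b lie at -0.52 and -0.46 in both hairpin comparisons, whereas under 5-aza Cdkn2a lies at 0.24 and 0.23 and Cdkn2b at -0.04.

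Whether the effect of 5-aza depended on the hairpin was tested as an interaction. In limma 0 of the 8 members passed (0 at an unadjusted p under 0.05, and 0 called by limma voom), where 0.388% of all intervals passed. The interaction of Cdkn2a was 0.00 on the log2 scale (95% interval -0.21 to 0.20), that of Cdkn2b 0.00 (-0.22 to 0.22), and that of Cdkn1b -0.15 (-0.35 to 0.05). The widest interval was that of Cdkn2c, at 0.14 (-0.19 to 0.47).

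The other CIP/KIP genes followed different courses. Cdkn1a, which encodes p21 and is a target of p53, was at 734 ± 43.4 RPM in control, 865 ± 26.6 in control + 5-aza, 598 ± 51.5 in Setdb1 and 693 ± 43.5 in Setdb1 + 5-aza (SD, n = 3). It fell with Setdb1 hairpins (log2 -0.30 without and -0.32 with 5-aza, limma adjusted p = 0.0147 and 0.00718) and rose with 5-aza (0.24 in control and 0.21 in Setdb1 cells, adjusted p = 0.0304 and 0.0336). Cdkn1c, the imprinted gene of p57, was at 40.8 ± 6.34, 45.2 ± 7.43, 55.9 ± 10.3 and 67.8 ± 3.07 RPM in the same order of groups and rose with Setdb1 hairpins in the presence of 5-aza (0.59, SE 0.14, adjusted p = 0.013). That call was lost without control + 5-aza replicate A or B or Setdb1 + 5-aza replicate B. The call of Cdkn1a without 5-aza was lost without control replicate 1 or Setdb1 replicate 1 and with replicates A and B only. Its 5-aza call in control cells was lost without control replicate A or B or control + 5-aza replicate B or 1, that in Setdb1 cells without Setdb1 replicate A or 1 or Setdb1 + 5-aza replicate A or B, and both with median centring.

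Rbl1 is shown with its promoter because it is itself a known E2F target. A search of the 9 member windows for the E2F site letters TTTCGCGC or TTTGGCGC, on either strand, found 1 match, in Rbl1, with its first base 18 bases before the start. Such a match was present in 0.813% of the 32851 windows. The match is in capitals.
Rbl1, chr2:157204485-157204784, reverse strand: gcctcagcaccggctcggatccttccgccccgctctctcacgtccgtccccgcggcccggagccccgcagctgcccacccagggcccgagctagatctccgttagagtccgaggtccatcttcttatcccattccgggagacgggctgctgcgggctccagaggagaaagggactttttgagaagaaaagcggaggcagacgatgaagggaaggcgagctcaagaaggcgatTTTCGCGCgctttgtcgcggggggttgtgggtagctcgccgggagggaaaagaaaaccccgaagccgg
The E2F target list held 20 genes for DNA synthesis and mitosis. Like the members, it was chosen with earlier results of these data known, so its counts beside the shares of all intervals are descriptive. With Setdb1 hairpins 10 of the 20 rose without 5-aza (median log2 fold change 0.37) and 20 of 20 with it (median 0.53), and none fell. Of all intervals tested, 9.01% rose without 5-aza (median 0.031) and 14.5% with it (median 0.047). Mki67, a marker of cycling cells, rose by 0.42 and 0.67 on the log2 scale (limma adjusted p = 0.00747 and 0.000327). Pola1, a subunit of DNA polymerase alpha, rose by 0.40 without 5-aza (adjusted p = 0.0112) and the mitotic cyclin gene Ccnb1 by 0.79 with it (adjusted p = 0.000574). With 5-aza 8 of 20 fell in control hairpin cells (median -0.31), Mki67 by 0.64 and Pola1 by 0.44, and 2 of 20 fell in Setdb1 hairpin cells (median -0.15), again Mki67 and Pola1. Without a block, 5.34% of all intervals fell in control cells and 7.51% in Setdb1 cells. The fall of targets in control cells and their rise with Setdb1 hairpins in 5-aza share the control + 5-aza libraries, so they are not independent. With the pairing as a block 10 of the 20 targets fell and 1 rose in Setdb1 cells. The shares of all intervals in the blocked fit are not given here, so these counts cannot be read against the shares above. In the fit without a block and without Setdb1 + 5-aza replicate 1, 5 targets fell. The summed level of the list was 908 to 956 RPM in control, 648 to 796 in control + 5-aza, 1078 to 1338 in Setdb1 and 912 to 1221 in Setdb1 + 5-aza libraries.

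The count of 10 without 5-aza was lowest in fits without replicate 1 of control or of Setdb1, which carried the other hairpins. It was 1 without control replicate 1, 2 without Setdb1 replicate 1 and 0 with replicates A and B only, at median log2 fold changes of 0.32, 0.26 and 0.22. The hairpin and the loss of libraries cannot be told apart in these fits. Leaving out control replicate A or B gave 5, control + 5-aza replicate B or Setdb1 + 5-aza replicate B gave 6, and median centring gave 5. With 5-aza the count stayed between 13 (without Setdb1 + 5-aza replicate 1) and 20 in all alternatives. In control cells the count of 8 fell to 2 without control replicate B, 3 without control replicate A or control + 5-aza replicate A and 4 without control + 5-aza replicate B, and was 13 with median centring, 14 with only the groups compared and 17 with replicates A and B only. The share of cycling cells was not measured, and its part in the levels of Rbl1, Cdkn2c and Cdkn1b was not tested.

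**Figure D4:**
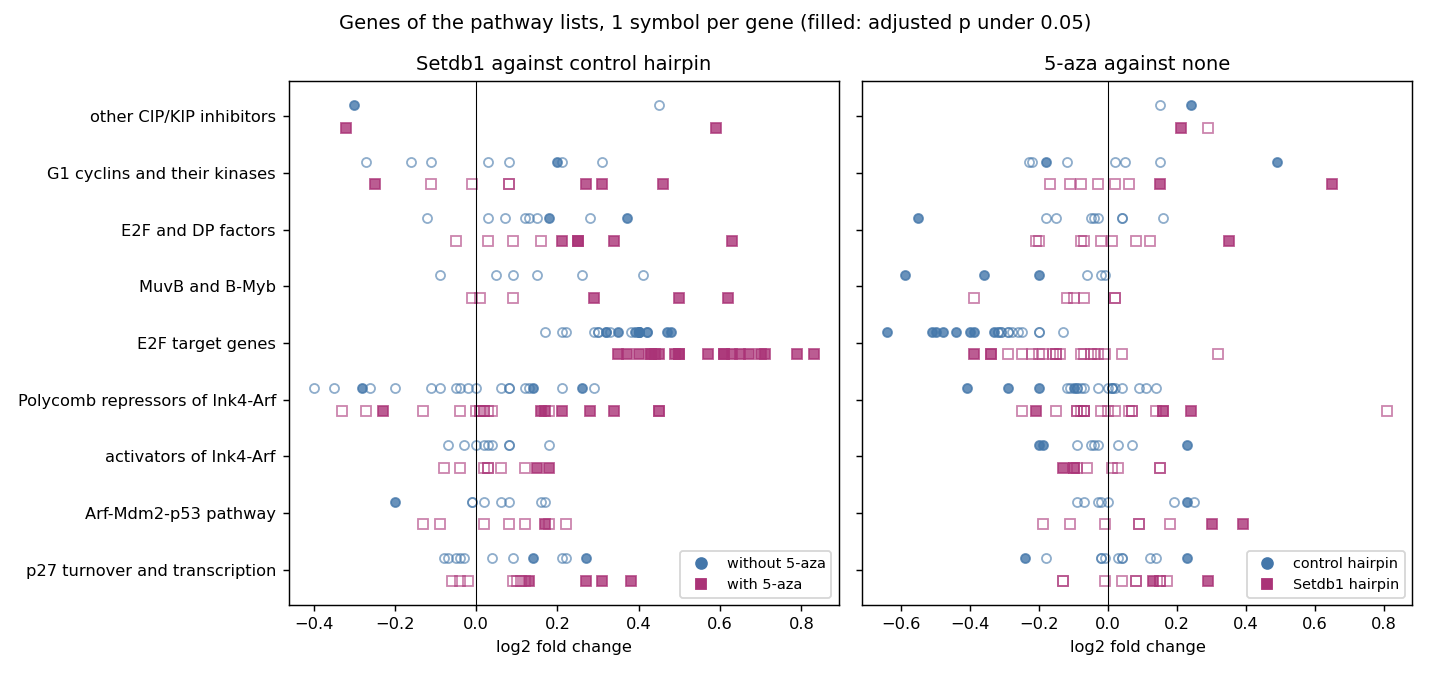
Log2 fold change (horizontal axis) of the tested genes of 9 pathway lists (rows), 1 symbol per gene and filled where the adjusted p was under 0.05. The left panel has Setdb1 against control hairpin without (circles) and with 5-aza (squares), and the right panel has 5-aza against none in control (circles) and Setdb1 hairpin cells (squares); of the 20 E2F targets, all squares on the left are filled and above 0.

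The lists that follow were read against the shares of all intervals called higher and lower, 9.01% and 3.4% with Setdb1 hairpins without 5-aza, 14.5% and 5.37% with it, 13.5% and 5.34% with 5-aza in control cells and 21.4% and 7.51% in Setdb1 cells. These are not the shares of the alternative fits. As for the members, the 5-aza comparisons share libraries with the hairpin comparisons and are not independent of them. These lists too were chosen with earlier results of these data known, so their counts are descriptive. Among the targets of the inhibitors, 8 G1 cyclins and kinases were tested. Cdk2 rose with Setdb1 hairpins in both conditions (log2 0.20 and 0.27, limma adjusted p = 0.00703 and 0.000907) and was the only one called without 5-aza, whereas with 5-aza 3 rose and Ccnd2, the gene of cyclin D2, fell (-0.25, adjusted p = 0.00855). With 5-aza in control cells Ccnd1, the gene of cyclin D1, rose by 0.49 (adjusted p = 0.0123) and Cdk2 fell by 0.18 (adjusted p = 0.0106), and in Setdb1 cells Ccnd1 rose by 0.65 and Ccnd3 by 0.15 (adjusted p = 0.00237 and 0.0198). Cdk4 and Cdk6, the direct targets of INK4 proteins, were called in none of the comparisons; Cdk6 differed by 0.03 (95% interval -0.12 to 0.19) and 0.08 (-0.08 to 0.23) with Setdb1 hairpins, and by -0.22 (-0.37 to -0.06, adjusted p = 0.0511) and -0.17 (-0.33 to -0.02, adjusted p = 0.0856) with 5-aza in control and Setdb1 cells. With Setdb1 hairpins the 3 that rose in 5-aza were 1 without control + 5-aza replicate A or Setdb1 + 5-aza replicate 1, and without 5-aza the 1 became 3 without control + 5-aza replicate A and 0 with replicates A and B only. The Ccnd1 call in control cells was lost without control replicate B, and 1 gene rose in Setdb1 cells without Setdb1 replicate A or 1 or Setdb1 + 5-aza replicate A. Median centring gave 1 higher and 2 lower in the hairpin comparison without 5-aza and with 5-aza in either class.

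Of the 10 E2F and DP genes, 9 were tested. With Setdb1 hairpins 2 rose without 5-aza, E2f8 (log2 0.37, limma adjusted p = 0.022) and Tfdp1 (0.18, adjusted p = 0.0339), and 5 rose with it, led by Tfdp1 (0.25, adjusted p = 0.00519) and E2f7 (0.63, adjusted p = 0.00658). E2f7 encodes a repressor of E2F targets. The 2 became 0 without control replicate 1 or Setdb1 replicate 1, and 1 without replicate A or B of control, replicate A of Setdb1, or replicate B of control + 5-aza or Setdb1 + 5-aza. The 5 became 2 without Setdb1 + 5-aza replicate B or 1 and 3 without control + 5-aza replicate B. With 5-aza E2f7 fell in control cells (-0.55, adjusted p = 0.0134) and E2f1, an activator, rose in Setdb1 cells (0.35, adjusted p = 0.0035), where the pairing as a block, and also median centring, gave 1 higher and 2 lower. The MuvB subunits and B-Myb, partners of p107 and p130 on cell cycle genes, gave 0 calls of 6 without 5-aza in limma (3 at an unadjusted p under 0.05, 0 called by limma voom) and 3 higher with it, including Lin9 (0.50, adjusted p = 0.00413) and Lin54 (0.29, adjusted p = 0.00466). With 5-aza in control cells the same 3 genes fell, led by Mybl2, which encodes B-Myb (-0.59, adjusted p = 0.0147), and Lin9 (-0.36, adjusted p = 0.0214), and 0 of 6 passed in Setdb1 cells in limma (1 at an unadjusted p under 0.05, 0 called by limma voom; 1 lower with the pairing as a block). The fall in control cells and the rise with Setdb1 hairpins in 5-aza share the control + 5-aza libraries, so they are not independent. The 3 that fell in control cells became 0 without control replicate A or B and 1 without control + 5-aza replicate A.

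Polycomb proteins are known to repress the Ink4-Arf locus, and 20 of their genes were tested. With Setdb1 hairpins 2 rose and 1 fell without 5-aza, against 9.01% and 3.4% of all intervals, and 6 rose and 1 fell with it, against 14.5% and 5.37%. Suz12, a subunit of the complex that methylates lysine 27 of histone H3, rose by log2 0.26 and 0.28 (limma adjusted p = 0.00429 and 0.00188), and Cbx6, a reader of that mark, fell by 0.28 and 0.23 (adjusted p = 0.00171 and 0.00401). Bmi1, whose loss is known to raise Cdkn2a, was the other gene that rose without 5-aza (0.14, adjusted p = 0.0146). With 5-aza 4 fell in control cells, led by Eed (-0.29, adjusted p = 0.011) and Phc1 (-0.20, adjusted p = 0.0216), whereas in Setdb1 cells Cbx6 (0.16, adjusted p = 0.0197) and Ezh1 rose and Eed fell (-0.21, adjusted p = 0.0296). The 6 that rose became 3 without control + 5-aza replicate B or Setdb1 + 5-aza replicate B or 1, and without 5-aza the count was 1 in each direction without control replicate B, and 0 with replicates A and B only. In control cells the 4 that fell became 1 without control replicate B or control + 5-aza replicate B and 2 without control replicate A or 1 or control + 5-aza replicate A or 1. In Setdb1 cells 0 were called without Setdb1 replicate A or 1, 1 rose and 1 fell without Setdb1 + 5-aza replicate A or 1, 3 rose and 3 fell with the pairing as a block, and 0 rose and 4 fell with median centring.

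Of 9 known activators of the locus, 0 were called with Setdb1 hairpins without 5-aza in limma (0 at an unadjusted p under 0.05, 0 by limma voom), and with 5-aza Junb and Smarcb1 rose (log2 0.18 and 0.15, limma adjusted p = 0.0171 and 0.0174). With 5-aza the transcription factor gene Ets1 fell by 0.19 in control and 0.13 in Setdb1 cells (adjusted p = 0.00854 and 0.0322), Junb fell by 0.20 in control cells (adjusted p = 0.0104), Foxo3 rose there, and Dmtf1, an activator of Arf, fell by 0.10 in Setdb1 cells (adjusted p = 0.0391). The 2 that rose with Setdb1 hairpins became 0 without control + 5-aza replicate A or with median centring, and 1 without control + 5-aza replicate B or Setdb1 + 5-aza replicate B or 1. The Foxo3 call was lost without control replicate A or B and with median centring, which gave 0 higher and 3 lower. The 2 that fell in Setdb1 cells became 0 without Setdb1 replicate A or 1 or Setdb1 + 5-aza replicate A or B, and 1 without control replicate A or B, control + 5-aza replicate B or Setdb1 replicate B.

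Downstream of Arf, 8 genes of the Mdm2-p53 pathway were tested. Ccng1, a p53 target, fell by log2 0.20 with Setdb1 hairpins without 5-aza (limma adjusted p = 0.0413), and Trp53 rose by 0.17 with 5-aza present (adjusted p = 0.0313). With 5-aza Ccng1 rose by 0.23 in control and 0.30 in Setdb1 cells (adjusted p = 0.0159 and 0.00321), and Mdm2, the ligase that Arf inhibits, rose by 0.39 in Setdb1 cells (adjusted p = 0.0114). The fall of Ccng1 was lost without control replicate A, B or 1, control + 5-aza replicate B, Setdb1 replicate A or 1, or Setdb1 + 5-aza replicate B or 1. The count of 1 in 5-aza became 0 without control + 5-aza replicate A or B or Setdb1 + 5-aza replicate 1, 3 higher without control + 5-aza replicate 1, and 0 higher and 1 lower with median centring. In control cells it became 0 without control replicate A or B or control + 5-aza replicate 1, and in Setdb1 cells 1 rose without Setdb1 + 5-aza replicate B and 3 rose and 1 fell with the pairing as a block.

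Among 11 genes for the turnover and transcription of p27, Skp2, the F-box protein that marks p27 for degradation, rose with Setdb1 hairpins by log2 0.27 and 0.38 (limma adjusted p = 0.0219 and 0.0028). Cul1, of the same ligase, rose by 0.14 without 5-aza (adjusted p = 0.0397) and its cofactor Cks1b by 0.31 with it (adjusted p = 0.0223), so that 2 of 11 and 4 of 11 rose and none fell. With 5-aza in control cells Skp2 fell (-0.24, adjusted p = 0.0284) and Foxo3, a factor that drives Cdkn1b, rose (0.23, adjusted p = 0.0179). In Setdb1 cells Uhmk1 and Rnf123 rose (0.29 and 0.13, adjusted p = 0.011 and 0.0308). Without 5-aza the 2 became 0 without control replicate B or 1 or Setdb1 replicate 1, and 1 without control replicate A, Setdb1 replicate A or B, or replicate B of control + 5-aza or Setdb1 + 5-aza. The 4 became 1 without control + 5-aza replicate A or Setdb1 + 5-aza replicate B or 1, and 2 without control replicate A or B or control + 5-aza replicate B. Both calls in control cells were lost without control replicate A or B. The 2 in Setdb1 cells became 0 without Setdb1 + 5-aza replicate B, 1 without Setdb1 replicate A or B or Setdb1 + 5-aza replicate A, 5 without control + 5-aza replicate A, and 5 higher and 1 lower with the pairing as a block.

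Around the locus, 6 other intervals of the table lay within 200 kb of Cdkn2a and Cdkn2b, and 3 had enough reads to test. This set was chosen after the table had been seen. Mtap, the metabolic gene beside Cdkn2a, was at 149 ± 6.48 RPM in control and 155 ± 3.18 in Setdb1 libraries and was not called (log2 0.06 and 0.05, limma adjusted p = 0.487 and 0.484). Gm12602, a noncoding transcript at chr4:89100664-89128226, was at 1.08 ± 0.136, 1.53 ± 0.160, 2.38 ± 0.232 and 2.74 ± 0.0781 RPM in control, control + 5-aza, Setdb1 and Setdb1 + 5-aza (SD, n = 3) and rose with Setdb1 hairpins by 1.15 and 0.85 (SE 0.12, adjusted p = 0.000108 and 0.000792). It also rose with 5-aza in control cells (0.51, limma adjusted p = 0.0142) and was not called in Setdb1 cells (0.20, adjusted p = 0.224). Gm12603, at chr4:89050308-89084614, rose by 1.10 and 1.08 (SE 0.24, adjusted p = 0.0112 and 0.00854) from 30 to 52 reads a control library. Its mean was 0.756 ± 0.144 RPM in control, under the 1 RPM of the filter, and 1.64 ± 0.479 in Setdb1 libraries (SD, n = 3). It was thus tested through groups in which it was higher, and its rise from control is not independent of the filter. Alternative fits are not given here for Gm12602 or Gm12603. Gm12606, Gm12609 and Gm12610 had at most 10 reads in any library. In a wider list of neighbours, Elavl2 fell without 5-aza (-0.39, adjusted p = 0.0336) from 2.44 RPM and Klhl9 was not called (0.02, adjusted p = 0.767).

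Over the 12 libraries the log2 levels of Cdkn2a and Cdkn2b were correlated at Pearson r = 0.851. The intervals most like Cdkn2a were Fbxo44 (r = 0.981), Sorcs1 (0.977) and Hspa12b (0.974). Those most like Cdkn2b were Setdb1 itself (0.971), Kank4 (0.969) and Dlgap4 (0.969). Setdb1 fell from 46.25 to 14.1 RPM and Kank4 from 6.70 to 1.36 RPM between control and Setdb1 libraries, and Cdkn2b from 89.45 to 65.2 RPM. These values are descriptions of libraries that share hairpin and drug, chosen as the highest of the 13134 tested intervals.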

How the data were processed

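Poly(A) RNA of 13 libraries (TruSeq RNA kit, Illumina HiSeq, 100-base single-end reads) was analysed from 1 table of log2 RPM that the authors deposited, with 1 value per gene interval and library, where genes without a read stand at 0.9 read. The submitters' processing notes name mm10 and CASAVA 1.4. The counting tool for this table and its use of strand are not given in the sources used here. All 13 columns of values were mapped to libraries by name. Whole reads were recovered from the deposited log2 values within 1% and give a depth of 36421653 to 51270200 reads in genes, or 165 to 5045 reads for each member, in the 12 hairpin libraries, and of 17384746 reads in the library without a named hairpin.

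The log2 values were fitted in limma 3.58.1 (R 4.3.3; lmFit and eBayes with a trend) over the 12 hairpin libraries by group, for 5 contrasts. Intervals needed at least 1 RPM in 3 libraries, no pseudocount was added, and p-values (two-sided) were adjusted by the Benjamini-Hochberg method over 13134 intervals. Alternatives were another filter or none, pseudocounts of 1 and 0.1 RPM, median centring, quantile normalization, limma voom on recovered reads, subsets of libraries, replicate blocks and leaving out each library. The code was tested on simulated data. RPM per kb used GENCODE exon lengths. The library without a named hairpin entered no comparison.

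The members and gene lists were chosen with earlier results of these data known. Named were all members, Cdkn1a, Cdkn1c, Setdb1, the 2 called genes of lowest adjusted p per list and comparison, and the 3 intervals most correlated with Cdkn2a and with Cdkn2b over the 12 libraries. E2F targets are shown with their totals, and Bmi1, Ezh1, Cdk4 and Cdk6, the activator genes after the first 2 of a comparison, and the intervals within 200 kb were named after their values were seen. Cultures with the same hairpin and replicate label, without and with 5-aza, had residual correlations of 0.413 to 0.634 in Setdb1 cells and of 0.0999 to 0.586 in control cells. They were taken as pairs only where each correlation was over 0.1. This held in Setdb1 cells but not in control cells, where the lowest was just under it. Calls not said to be blocked, in either class, come from fits without a block.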

Additional observations from a re-analysis of the deposited data

Results flagged for a closer look

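The labels name no hairpin for 1 library with 5-aza, which therefore had no group, and it held 17384746 reads in genes, fewer than the others. PGK stands in its library name, and the study's methods mention a PGK sample used to find variants; whether this library is that sample, and whether it was transduced or selected, is not stated for it. Several members lay above every control and every control + 5-aza library in it. Cdkn2c was at 6.92 RPM (141 reads), against 3.55 to 3.98 RPM in control + 5-aza. Cdkn1b was at 41.45 RPM, against 25.3 to 26.55 RPM, and Rbl1 at 20.4 RPM, against 13.0 to 13.6 RPM. Rbl2 was at 37.5 RPM, above all 12 hairpin libraries (29.2 to 36.3 RPM). Being 1 library, it was not tested against any group.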

How the results depend on the processing

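Of 17 member changes called, 8 were kept in all 22 alternatives and 0 were reversed. The 8 were Cdkn2a and Cdkn2b with Setdb1 hairpins in both conditions, Cdkn2c and Rbl1 with Setdb1 hairpins in 5-aza, and Cdkn1b with 5-aza in both hairpin classes. For Setdb1 against control hairpins without 5-aza, 5 members were called, but 2 with replicates A and B only and 2 with a replicate block by letter in those libraries, where residuals of libraries with the same letter correlated at -0.47 to 0.19 (with 5-aza at 0.686 for A and -0.02 for B). As not every pair was over 0.1, the letter was not taken as a pairing. For 5-aza in control hairpin cells, 4 members were called, and 1 to 4 when 1 library was left out. With the replicate block by culture the count did not change by over 1.5 times, but 16 rather than 8 E2F targets were lower. The share of all intervals lower in that blocked fit is not given here, so the 16 cannot be read against it. For 5-aza in Setdb1 hairpin cells, 2 members were called, 4 with the replicate block by culture (the pairing), 1 with only the groups compared, 1 with replicates A and B only, and 1 to 3 when 1 library was left out. Fits of fewer libraries have fewer residual degrees of freedom. The cause of the other changes was not tested. Median centring, which moved the median interval by under 0.1 on the log2 scale, ended the Cdkn2a calls with 5-aza and, with Setdb1 hairpins, those of Cdkn2c without 5-aza (adjusted p = 0.0643) and of Cdkn2d (0.0792) and Cdkn1b (0.168) with it. It called Cdkn2c (-0.33, 0.0382) and Rbl1 (-0.20, 0.0385) lower with 5-aza in Setdb1 cells. Cdkn2c and Cdkn2d, at 165 to 353 reads a library, had the widest intervals.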

Other observations

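In the same library the Ink4-Arf genes were lower than in any of the 12 hairpin libraries. Cdkn2a was at 18.9 RPM (385 reads), where the hairpin libraries ranged from 25.4 to 45.8 RPM, and Cdkn2b was at 56.8 RPM (1158 reads), where they ranged from 57.9 to 95.0 RPM. Rb1 was at 36.45 RPM, below the control + 5-aza libraries (40.6 to 40.7 RPM) and within the range of the 12, and Cdkn2d at 4.96 RPM was within the control + 5-aza range (4.435 to 5.04 RPM). The hairpin, the selection and the source of the cells are not separated for this library, and their part in these values was not tested.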
